A study of Mus musculus with 4 samples.

Results

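The response of wild-type mouse aorta to estradiol (E2) was measured with Affymetrix mouse expression arrays. WT_E2 holds aortas of wild-type (WT) C57BL/6 females kept ex vivo for 4 h with 10 nM E2, and WT_Veh holds WT aortas kept for the same time with the ethanol vehicle. All mice were 12 to 14 weeks old and had lost their ovaries 1 week before, which removes the main source of circulating estrogen. DPM_E2 and DPM_Veh, used beside them, come from disrupting peptide mice, which carry residues 176 to 253 of estrogen receptor alpha as a transgene under the CMV promoter. That promoter is active in many cell types, and the peptide keeps the receptor from binding striatin. Each sample pooled 4 aortas. By title the E2 groups have 2 replicates and the vehicle groups 3, but the values used here hold 1 level for a whole group. Each gene symbol was represented by its brightest probe set, and a gene was kept where its log2 level reached 5 in WT_E2 or WT_Veh. A gene under 5 in 1 of these groups was thus kept through the group where it is high. Of 12393 symbols, 5026 were kept, against 5151 in the whole series. Just inside that limit lay Aox1, Ngrn and Esm1, with highest levels of 5.001, 5.004 and 5.005. Just outside it lay Msh6, Aar2 and Des, whose WT_E2 levels were 4.9995, 4.9988 and 4.9984.

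Estradiol acts through estrogen receptors alpha and beta, which bind DNA or tether to other factors such as AP-1, and through receptor at the cell membrane that signals to kinases. The aorta is mostly smooth muscle in an elastic matrix, lined by endothelium and wrapped in fibroblasts and fat. In vessels estrogen is known for endothelial nitric oxide release, for repair of the endothelium after injury and for lower expression of inflammatory genes.

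All levels and differences are log2 values, and ± gives the standard error, worked out here because the authors' deposited table holds differences and p-values only. A gene is called higher or lower where the unadjusted limma p in the authors' deposited table is under 0.05; nothing says whether the replicates were separate pools, so that p measures the spread between samples that may be technical. With E2, 212 genes were called higher (4.22% of those kept) and 135 lower (2.69%), which is 347 in either direction (6.9%). An unadjusted limit of 0.05 is set to call a share of 0.05 of genes even where none responds. Many of the 347 calls may therefore not be responses to E2. Centring the differences on their median gave 198 called higher and 146 lower, and quantile normalization of the 4 group levels gave 177 and 181. Both settings kept the standard errors worked out here and computed new p-values from them. Limma was not run again. A stricter limit of 0.01 on the deposited p left 68 genes higher (1.35%) and 37 lower (0.736%). At least 1.5-fold, with or without a call, 74 were higher (1.47%) and 37 lower (0.736%), and 55 and 20 met both limits. After Benjamini-Hochberg adjustment 1 gene (0.0199%) stayed under 0.05. It was Mast2, which encodes a kinase bound to microtubules, at 8.29 in WT_E2 and 7.44 in WT_Veh, a difference of 0.84 ± 0.07 (adjusted p = 0.04996, computed from the limma p in the authors' deposited table). That call ended when the differences were centred, quantile normalized or tested without a minimum level, so single genes below are differences with their errors.

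Medians over the genes kept were 6.90 in both WT groups, and the median difference was 0.01. The median standard error was 0.15, at which a gene needed 1.28-fold to be called. Hybridization controls differed by a median of 0.03. The Gapdh controls stood at 0.54 for the 5' end, 0.28 for the middle and -0.03 for the 3' end, and those of beta-actin at -0.41, -0.44 and -0.24, with none called. Esr1 was at 2.31 in WT_E2 and 2.33 in WT_Veh and Esr2 at 2.29 in both, the lowest level on the array, so neither receptor was detected above background. Strn, which encodes striatin, was at 3.20 in WT_E2 and 3.09 in WT_Veh. Gper1, the membrane estrogen receptor gene, was not among the symbols used here.

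**Figure D1:**
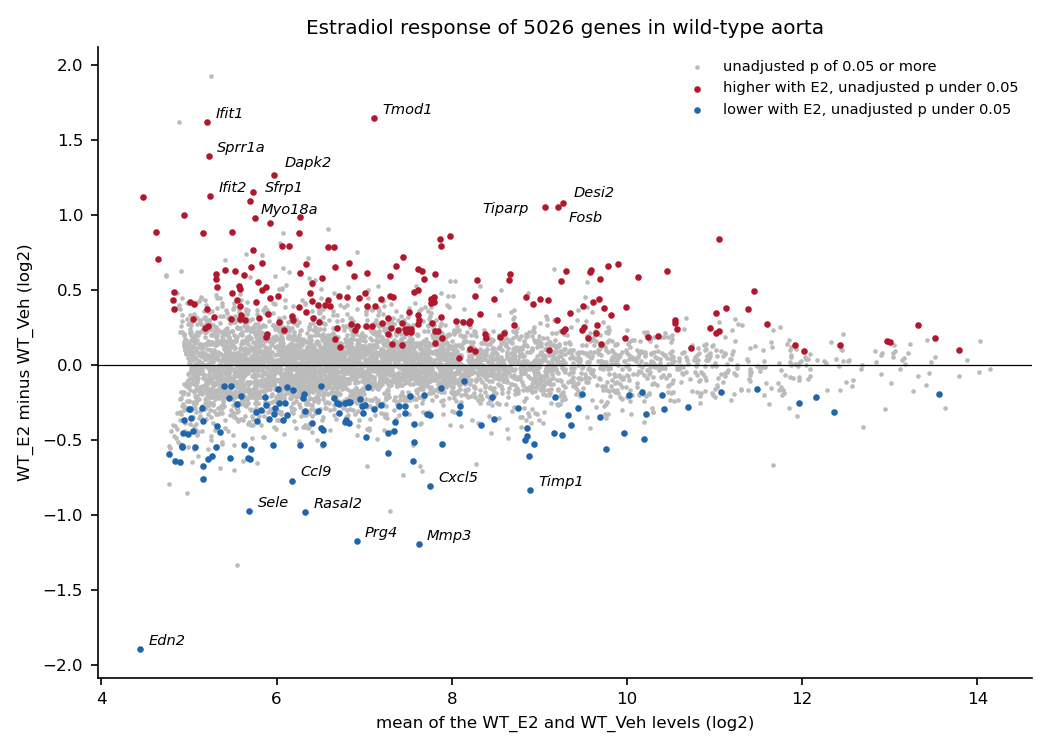
Each point is 1 of 5026 genes, with the mean of its 2 WT group levels on the x axis and WT_E2 minus WT_Veh on the y axis, both log2. Red points (212) were called higher and blue points (135) lower at an unadjusted p under 0.05; Tmod1 (1.65) and Ifit1 (1.62) lie highest among the called genes and Edn2 (-1.89) lowest.

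Across 106 gene lists grouped into 10 classes, the shares of called genes are given without a test. Immune and inflammatory genes had 13 of 115 called higher (11.3%) and 8 lower (6.96%). Transcription factors had 16 of 201 called higher (7.96%) and 8 lower (3.98%), and signalling genes had 25 of 326 higher (7.67%) and 7 lower (2.15%). Metabolic and mitochondrial genes had 6 of 456 higher (1.32%) and 16 lower (3.51%). Genes of protein synthesis and turnover had 20 of 492 higher (4.07%) and 11 lower (2.24%), close to the shares over all genes (4.22% and 2.69%). Those shares apply to every list below, and in a list of few genes they leave few or no calls. Over all 5026 genes kept, 2591 were higher and 2434 lower, called or not. The median size of a difference was 0.17 among transcription factors and 0.09 among metabolic genes, against 0.11 over all genes. The lists cover 188 of the 347 called genes, and the other 159 belong to none of them.

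**Figure D2:**
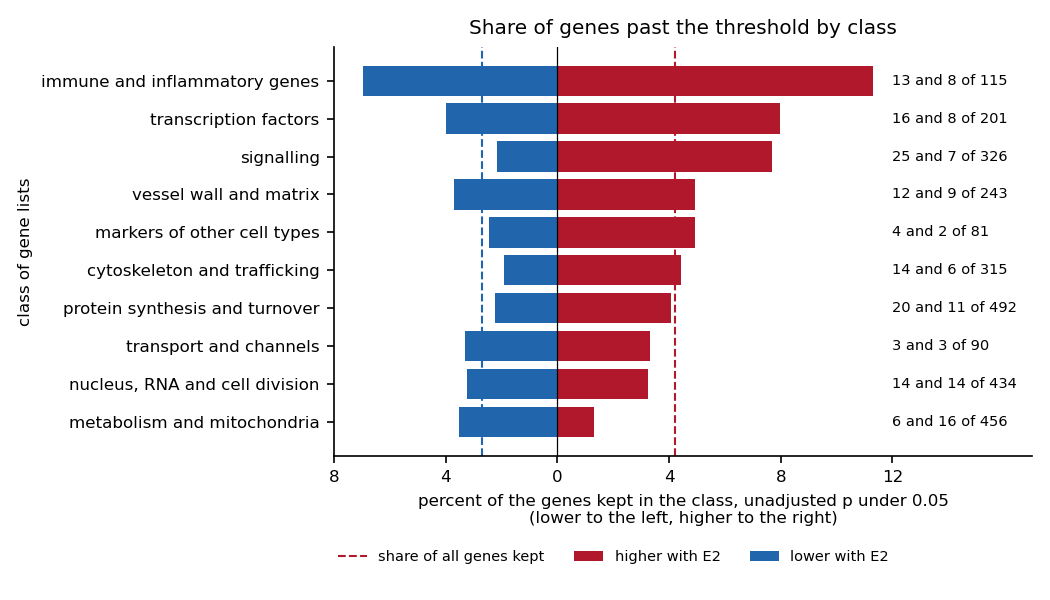
Bars give the percent of the genes kept in each class that were called higher (red, right) or lower (blue, left) in WT_E2 at an unadjusted p under 0.05, and dashed lines give the shares over all 5026 genes (4.22% and 2.69%). Immune and inflammatory genes exceed both lines, with 11.3% and 6.96%, and metabolic genes lie below the line for higher genes, at 1.32%.

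The gene called higher with the largest difference was Tmod1, which encodes tropomodulin, the cap on the pointed ends of actin filaments. It stood at 7.94 in WT_E2 and 6.29 in WT_Veh (difference 1.65 ± 0.23). Sprr1a, a cornified envelope protein gene that injured tissue also makes, was at 5.93 in WT_E2 and 4.53 in WT_Veh (difference 1.39 ± 0.38). Dapk2, which encodes a calcium-dependent death kinase, was at 6.60 in WT_E2 and 5.33 in WT_Veh (difference 1.27 ± 0.42). Sfrp1, whose secreted protein holds back Wnt signals, was at 6.31 in WT_E2 and 5.15 in WT_Veh (difference 1.16 ± 0.18), but the median over its probe sets was 0.27. Such medians take all probe sets of a gene, also those under the level limit, where the others of Sfrp1 lie. A call over them uses the median of the deposited p-values, which is not a p of the median difference. Myo18a, an unconventional myosin gene, was at 6.24 in WT_E2 and 5.15 in WT_Veh (difference 1.10 ± 0.34), and Desi2, which encodes a small deubiquitinating peptidase, was at 9.81 in WT_E2 and 8.73 in WT_Veh (difference 1.08 ± 0.20). Another probe set of Desi2 gave 1.11 ± 0.13. Tiparp, an aryl hydrocarbon receptor target that ADP-ribosylates proteins, was at 9.59 in WT_E2 and 8.54 in WT_Veh (difference 1.06 ± 0.28), with 0.82 and 0.55 at its other probe sets. The rest of the 15 highest calls were Ifit1, Ifit2, Fosb and Elk3, described below, and Tstd2 (1.12 ± 0.24), Zcchc10 (1.00 ± 0.25), the calcium homeostasis modulator gene Calhm5 (0.99 ± 0.15) and the scaffold gene Caskin2 (0.98 ± 0.26). Upk3b, a mesothelial gene, had the largest difference of any gene kept, 1.93 ± 0.96 from 6.22 in WT_E2 and 4.28 in WT_Veh, and was not called. Ifit1, Ifit2, Sprr1a, Tstd2, Zcchc10 and Upk3b reached the level limit in WT_E2 only, so the limit itself favoured their place here.

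The largest difference among genes called lower was that of Edn2, which encodes the vasoconstrictor peptide endothelin 2. It stood at 3.50 in WT_E2 and 5.39 in WT_Veh (difference -1.89 ± 0.71), the widest error of the 30 leading genes. Edn2 reached the level limit in WT_Veh only, as did Eva1c, Gtf3a, Thoc2, Zfp787 and Tprkb below. The limit itself favoured the place of these genes among the lower calls. Mmp3, the matrix protease stromelysin, was at 7.03 in WT_E2 and 8.22 in WT_Veh (difference -1.19 ± 0.31). Prg4, which encodes the lubricant proteoglycan lubricin, was at 6.33 in WT_E2 and 7.50 in WT_Veh (difference -1.17 ± 0.23). Rasal2, whose protein switches off Ras, was at 5.83 in WT_E2 and 6.81 in WT_Veh (difference -0.98 ± 0.15). Timp1, the tissue inhibitor of metalloproteinases, was at 8.48 in WT_E2 and 9.31 in WT_Veh (difference -0.83 ± 0.25). Sele, Cxcl5 and Ccl9 are described with the inflammatory genes. Eva1c (-0.76 ± 0.15), the orphan receptor gene Mrgprf (-0.64 ± 0.24) and Gtf3a (-0.62 ± 0.18), a factor of RNA polymerase III, completed the list with 4 genes that were not called over the median of their probe sets. These 4 were Thoc2 (-0.67 ± 0.22; probe set median -0.33), Zfp787 (-0.64 ± 0.26; -0.03), Tprkb (-0.64 ± 0.26; 0.02) and the transcription factor gene Runx1 (-0.62 ± 0.20; -0.01). The other probe sets of these 4 lay under the level limit. Of the 30 leading genes, 25 kept their call over that median, and all 30 kept it when centred or quantile normalized.

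**Figure D3:**
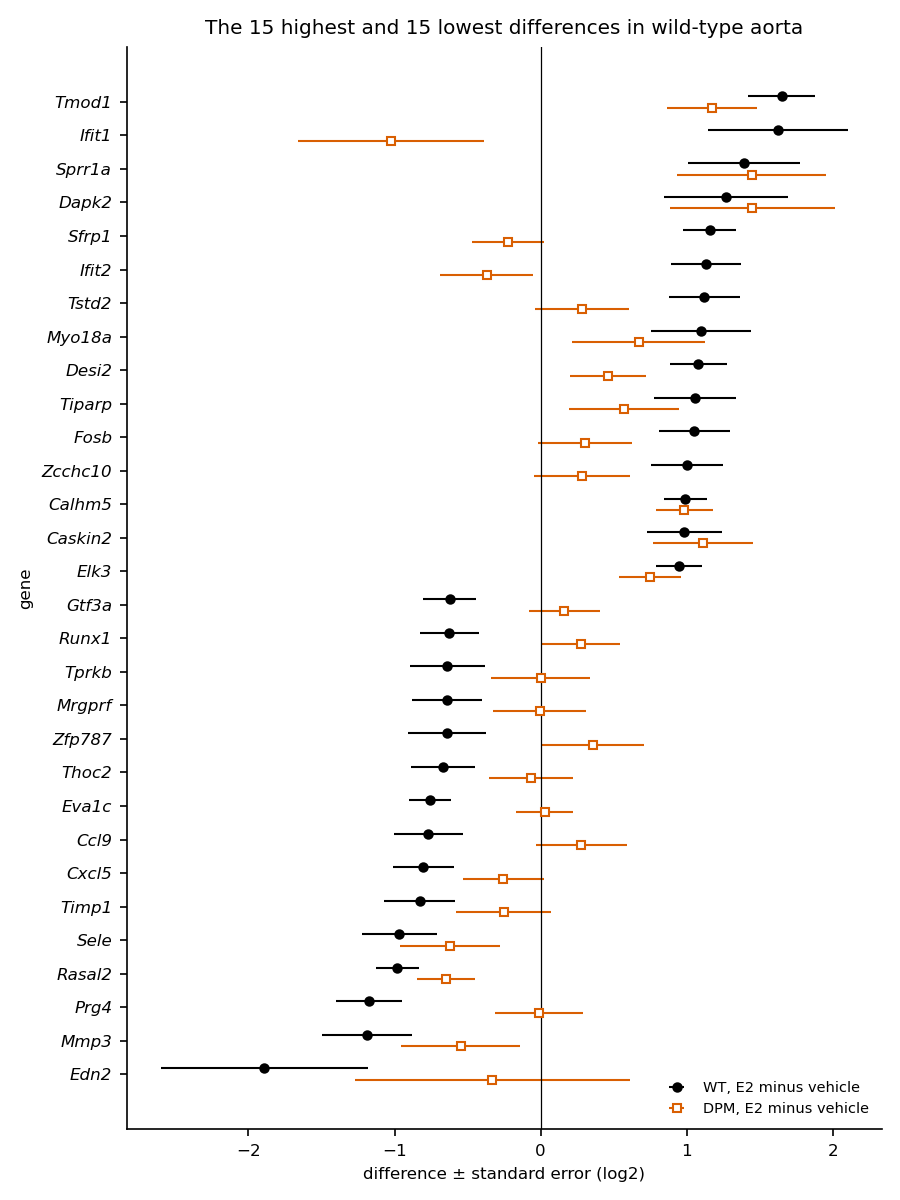
Points give the difference between E2 and vehicle, in log2 units with its standard error, for the 15 highest and 15 lowest calls in WT aorta; black circles are WT and orange squares DPM. In DPM, Tmod1, Sprr1a, Dapk2, Calhm5 and Caskin2 stand at 0.98 or more, while Ifit1 (-1.03) lies on the other side of 0.

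AP-1 factors of the Fos and Jun families and related ATF proteins are made within minutes to hours of a stimulus and bind the site TGANTCA. Of 17 kept, 11 were higher, with a median of 0.08 against 0.01 over all genes, and 5 were called, all higher. Fosb was at 9.74 in WT_E2 and 8.69 in WT_Veh (difference 1.05 ± 0.24). Fos was at 10.77 in WT_E2 and 10.14 in WT_Veh (difference 0.63 ± 0.23), and Atf3, a stress-induced member, was at 9.62 in WT_E2 and 8.99 in WT_Veh (difference 0.63 ± 0.22). Fosl2 was at 5.60 in WT_E2 and 5.02 in WT_Veh (difference 0.58 ± 0.17) and Jund at 11.19 in WT_E2 and 10.84 in WT_Veh (difference 0.35 ± 0.12). Jun (0.23 ± 0.19) and Junb (0.09 ± 0.64) were not called. Among 20 early factors of the Egr, Ier and Nr4a families and their companions, 15 were higher (median 0.17) and 3 were called, all higher. They were Zfp36l1, which destabilizes AU-rich messages, at 9.91 in WT_E2 and 9.46 in WT_Veh (difference 0.45 ± 0.08), the zinc finger factor gene Egr1 at 11.74 in WT_E2 and 11.46 in WT_Veh (difference 0.28 ± 0.07), and Btg1 at 11.17 in WT_E2 and 10.94 in WT_Veh (difference 0.23 ± 0.09), which lost its call after quantile normalization. Zfp36l1 had the same sign over the median of its probe sets (0.46) but no call. Nr4a1 stood at 0.39 ± 0.19, Ier2 at 0.07 ± 0.13 and Dusp1, a MAP kinase phosphatase gene, at 0.14 ± 0.11, so not every early gene was higher beyond its error. Rgs2 was at -0.73 ± 0.38 and was not called.

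Serum response factor (SRF) drives contractile or growth genes according to its partner, of which the ternary complex factors and myocardin-type coactivators are known to compete. Of 10 genes for SRF, its partners and the Mef2 factors, 3 were higher and 7 lower, and 5 were called. Elk3, a ternary complex factor, was at 6.40 in WT_E2 and 5.45 in WT_Veh (difference 0.95 ± 0.16), with a median of 0.55 over its probe sets that kept the call, and Mef2a at 11.47 in WT_E2 and 10.62 in WT_Veh (difference 0.84 ± 0.12), with 0.81 to 0.83 at the other 3 probe sets of Mef2a. Mrtfa, a myocardin-related coactivator gene, was at 4.96 in WT_E2 and 5.56 in WT_Veh (difference -0.60 ± 0.10), and reached the level limit in WT_Veh only. Myocd, which encodes myocardin, was at 7.62 in WT_E2 and 8.15 in WT_Veh (difference -0.53 ± 0.19) but at -0.02 ± 0.34 on another probe set, which leaves a median of -0.27 and no call, and Fhl2, a LIM cofactor gene, was at 6.29 in WT_E2 and 6.71 in WT_Veh (difference -0.42 ± 0.16). The list's median was -0.17, and 0.01 over the median of probe sets. Of the ETS factors, Erf stood at 0.74 ± 0.60, and of the Kruppel-like factors Klf2, a flow-responsive factor of endothelium, was the 1 called of 9, at 7.17 in WT_E2 and 6.49 in WT_Veh (difference 0.68 ± 0.19). Forkhead factors had 3 called higher and 1 lower of 9. Foxo1, which Akt holds out of the nucleus, was at 8.02 in WT_E2 and 7.56 in WT_Veh (difference 0.46 ± 0.08), Foxc2 at 11.70 in WT_E2 and 11.20 in WT_Veh (difference 0.50 ± 0.16) and Foxc1 at 9.99 in WT_E2 and 9.65 in WT_Veh (difference 0.33 ± 0.13), and both Foxc genes are known for vessel development. Foxj2 was at 6.71 in WT_E2 and 6.96 in WT_Veh (difference -0.25 ± 0.10). Across their probe sets the median was -0.05 for Foxj2 and 0.28 for Foxc1, and neither was then called. Twist2 (0.51 ± 0.21, not called when centred or quantile normalized) and the Myc antagonist gene Mnt (0.31 ± 0.12; probe set median 0.16, not called) were called among 15 Id, Hey, Hes and Twist factors, of which 12 were higher. Heyl, a Notch target, was at 0.59 ± 0.26 and not called, while another probe set gave 1.29 ± 0.30. Nuclear receptors had 0 of 11 called by the deposited limma p. Of 25 nuclear receptor coregulators 18 were lower (median -0.15), with the CBP-binding factor gene Cited2 (-0.33 ± 0.13; probe set median -0.46, not called) the 1 called.

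Of 38 genes listed as classic estrogen targets, 22 were kept; 12 were higher, and the median was 0.07. Besides Tiparp and Fos, Cxcl12, a chemokine gene that human breast cancer cells make in response to estrogen, was called higher at 8.36 in WT_E2 and 8.06 in WT_Veh (difference 0.30 ± 0.12). Fhl2 and Cited2 were called lower. Cyp1b1 (0.44 ± 0.22), Igf1 (0.29 ± 0.30), Nrip1 (0.19 ± 0.18) and Myc (0.09 ± 0.09) were not called. Of 20 genes for striatins, caveolar proteins and the nitric oxide pathway the 1 called was Cavin3, a coat protein gene of caveolae, at 7.31 in WT_E2 and 7.63 in WT_Veh (difference -0.31 ± 0.09). Nos3, the endothelial nitric oxide synthase gene, was at 6.63 in WT_E2 and 6.42 in WT_Veh (difference 0.21 ± 0.19), and Cav1 at -0.15 ± 0.11. The palindromic estrogen response element, GGTCA and TGACC with NNN between them, was searched on both strands of RefSeq windows that run 250 bases before to 50 bases after a start site (build GRCm38.p6). It had no match in the 4086 genes kept that had a window, and matched 20 of 27025 genes in all (0.074%).

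Interferon-induced antiviral genes carry response elements made of the runs GAAA and GAAA with NN between them, which interferon regulatory factors and STAT complexes bind. Of 41 on the array, 20 were kept. Of these 20, 18 were higher with E2, the median was 0.29, and 6 were called, all higher. The level limit favours members that are high in 1 group, and Ifit1 and Ifit2 reached it in WT_E2 only. Ifit1, whose protein binds viral RNA and whose gene lies in the Ifit cluster on chromosome 19, was at 6.02 in WT_E2 and 4.39 in WT_Veh (difference 1.62 ± 0.48). Ifit2 was at 5.81 in WT_E2 and 4.68 in WT_Veh (difference 1.13 ± 0.24) and Ifit3 at 6.70 in WT_E2 and 5.82 in WT_Veh (difference 0.88 ± 0.29). Rsad2, which encodes the antiviral enzyme viperin, was at 6.99 in WT_E2 and 6.20 in WT_Veh (difference 0.79 ± 0.23), with 0.97 and 1.08 at its other probe sets. Rtp4 (0.65 ± 0.20) and Parp14 (0.52 ± 0.20) were called as well. Levels of the 6 genes lay between 5.58 and 6.99 in WT_E2 and between 4.39 and 6.20 in WT_Veh. Bst2 (0.34 ± 0.39), Cxcl10 (0.26 ± 0.33) and Irf1 (0.22 ± 0.19) were not called. Isg20 (-0.26 ± 0.17) and Ifitm2 (-0.06 ± 0.36) were the 2 below 0. No interferon-induced GTPase of 4 was called, with a median of 0.29, and in the class of Smad, Stat, Irf and NF-kB factors 0 of 19 were called by the deposited limma p. In the same samples 15 leukocyte markers were kept with 0 called and a median of 0.14. The summed level of all 43 such markers on the array was 10.78 in WT_E2 and 10.69 in WT_Veh. Summed levels, here and below, add the unlogged levels of the members and are given in log2, so the brightest members weigh most. The part of leukocytes in the interferon genes was not tested.

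The windows of Ifit1, Ifit3 and Rsad2 are printed because these 3 genes were called and hold the interferon element. Capitals mark matches to that element, searched on both strands, which read TTTC and TTTC with NN between them on the strand shown. The windows are Ifit1 at chr19:34640639-34640938 on the plus strand, Ifit3 at chr19:34583279-34583578 on the plus strand and Rsad2 at chr12:26456403-26456702 on the minus strand of GRCm38.p6, from RefSeq, each given 5′ to 3′ in the direction of the gene.
Ifit1: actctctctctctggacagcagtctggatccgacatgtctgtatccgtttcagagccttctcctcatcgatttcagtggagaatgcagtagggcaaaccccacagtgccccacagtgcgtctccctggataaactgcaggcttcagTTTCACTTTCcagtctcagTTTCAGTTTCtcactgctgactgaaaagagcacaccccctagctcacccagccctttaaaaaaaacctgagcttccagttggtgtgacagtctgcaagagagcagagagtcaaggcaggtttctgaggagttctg
Ifit3: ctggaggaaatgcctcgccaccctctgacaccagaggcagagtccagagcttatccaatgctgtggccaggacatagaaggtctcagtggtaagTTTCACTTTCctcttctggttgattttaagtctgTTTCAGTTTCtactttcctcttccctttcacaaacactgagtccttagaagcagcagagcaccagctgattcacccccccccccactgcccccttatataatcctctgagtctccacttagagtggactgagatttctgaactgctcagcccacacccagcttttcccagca
Rsad2: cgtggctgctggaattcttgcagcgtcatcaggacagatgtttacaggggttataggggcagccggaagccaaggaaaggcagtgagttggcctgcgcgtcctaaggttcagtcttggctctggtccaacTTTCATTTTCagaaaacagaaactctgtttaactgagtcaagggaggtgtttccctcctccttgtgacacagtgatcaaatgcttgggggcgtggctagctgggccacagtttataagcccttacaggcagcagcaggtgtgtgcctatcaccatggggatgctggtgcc
Matches began at -104 and -85 in Ifit1, at -156 and -122 in Ifit3 and at -120 in Rsad2, counted from the start site. Of 16 interferon genes with a window, 7 held a match (43.8%), against 144 of 4086 genes kept (3.52%) and 1079 of all 27025 (3.99%). The other 4 were Bst2, Cxcl10, Ifitm2 and Ifitm3, none of which was called, and Ifit2 had no match in its window. The AP-1 site TGANTCA, described with the inflammatory genes, was in 6 of the 16 windows (37.5%). Genes called higher held the interferon element in 12 of 176 windows (6.82%) and genes called lower in 5 of 105 (4.76%).

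**Figure D4:**
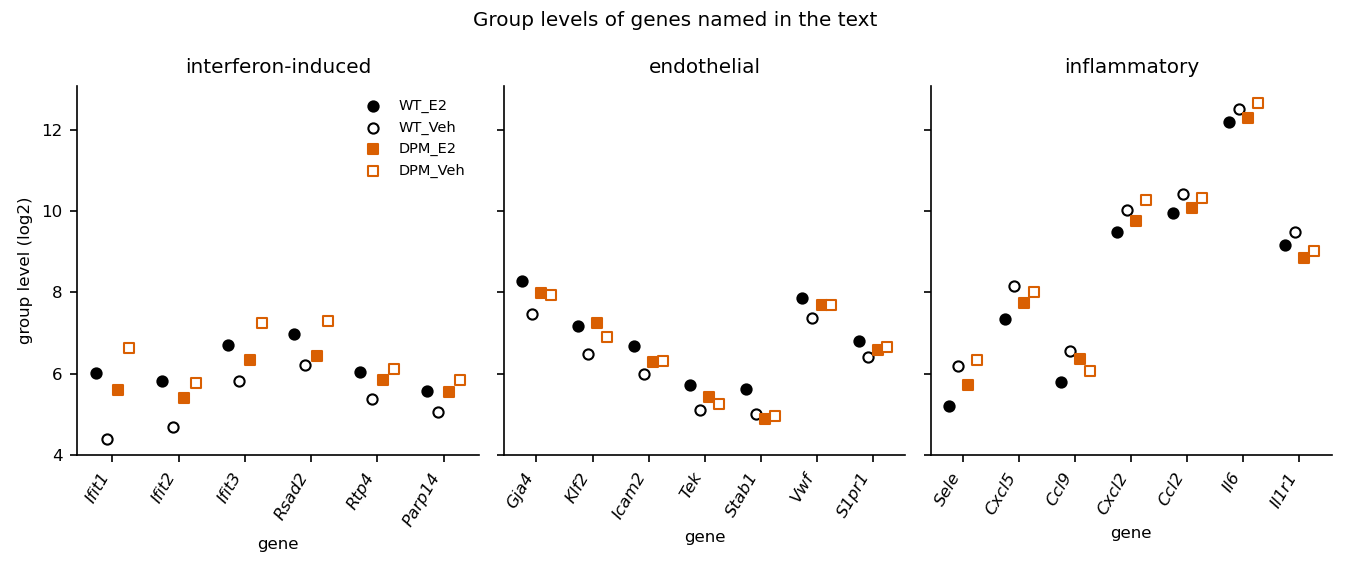
Log2 group levels of 6 interferon-induced, 7 endothelial and 7 inflammatory genes, with WT_E2 (filled circles), WT_Veh (open circles), DPM_E2 (filled orange squares) and DPM_Veh (open orange squares). Each WT_E2 level of the first 2 panels lies above its WT_Veh level, and each in the third lies below it. The third runs from Sele (5.21 in WT_E2, 6.17 in WT_Veh) to Il1r1 (9.16 in WT_E2, 9.49 in WT_Veh). All genes shown were picked because they were called in these directions, so the choice fixed the pattern. The endothelial marker Procr, called lower, and F3, Tnfsf9, Cxcl12 and Ackr3, called higher, are left out. Levels of different genes are not comparable.

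Of 28 genes of leukocyte adhesion and the NF-kB response, 20 were lower, the median was -0.07, and 5 were called lower and 2 higher. Sele, the endothelial selectin that slows rolling leukocytes, was at 5.21 in WT_E2 and 6.17 in WT_Veh (difference -0.97 ± 0.26). The neutrophil chemokine gene Cxcl5 was at 7.35 in WT_E2 and 8.15 in WT_Veh (difference -0.80 ± 0.21), and Cxcl2 at 9.48 in WT_E2 and 10.03 in WT_Veh (difference -0.56 ± 0.20). Ccl2, the main monocyte chemokine gene, was at 9.95 in WT_E2 and 10.44 in WT_Veh (difference -0.49 ± 0.14), and Ccl9, from the chemokine list, at 5.79 in WT_E2 and 6.56 in WT_Veh (difference -0.77 ± 0.24). Il6 had a high level and a small error, at 12.20 in WT_E2 and 12.52 in WT_Veh (difference -0.31 ± 0.06) (p = 0.0014 in the authors' deposited table). Il1r1, the interleukin 1 receptor gene, was at 9.16 in WT_E2 and 9.49 in WT_Veh (difference -0.33 ± 0.10), and Il1b at -0.69 ± 0.39 was not called. The 2 called higher were F3, which encodes tissue factor (0.57 ± 0.21), and the adhesion gene Icam2 (0.68 ± 0.13). Vcam1 (-0.11 ± 0.14), Icam1 (-0.07 ± 0.16) and Ptgs2 (-0.09 ± 0.15) were not called. Of 17 chemokine and chemokine receptor genes, 4 were called lower (Cxcl5, Ccl9, Cxcl2 and Ccl2), and Cxcl12 and its scavenging receptor gene Ackr3 (0.27 ± 0.05) were called higher. Tnfsf9, a costimulatory ligand gene, was at 6.54 in WT_E2 and 5.75 in WT_Veh (difference 0.79 ± 0.24).

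Windows of Mmp3, Sele and Il6 are printed because all 3 were called lower and hold the AP-1 site. Capitals mark TGANTCA, searched on both strands. They are Mmp3 at chr9:7445572-7445871 on the plus strand, Sele at chr1:164047984-164048283 on the plus strand and Il6 at chr5:30012864-30013163 on the plus strand of GRCm38.p6, from RefSeq.
Mmp3: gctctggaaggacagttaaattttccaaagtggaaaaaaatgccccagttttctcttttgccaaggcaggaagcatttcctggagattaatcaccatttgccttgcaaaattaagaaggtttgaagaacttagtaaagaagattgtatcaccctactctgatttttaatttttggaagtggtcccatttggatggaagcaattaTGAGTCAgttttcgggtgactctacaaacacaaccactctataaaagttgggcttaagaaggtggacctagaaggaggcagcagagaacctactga
Sele: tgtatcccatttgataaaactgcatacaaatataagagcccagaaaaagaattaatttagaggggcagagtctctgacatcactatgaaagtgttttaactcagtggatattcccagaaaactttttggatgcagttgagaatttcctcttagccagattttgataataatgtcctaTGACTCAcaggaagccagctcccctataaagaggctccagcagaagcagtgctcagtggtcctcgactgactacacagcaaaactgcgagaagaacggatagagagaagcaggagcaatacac
Il6: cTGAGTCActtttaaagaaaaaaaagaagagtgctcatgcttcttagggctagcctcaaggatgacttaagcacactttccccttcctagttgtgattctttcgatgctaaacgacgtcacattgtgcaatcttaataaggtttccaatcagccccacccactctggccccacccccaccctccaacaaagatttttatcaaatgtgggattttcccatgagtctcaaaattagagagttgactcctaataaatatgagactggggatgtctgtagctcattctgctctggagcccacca
The site began at -46 in Mmp3, at -73 in Sele and at -249 in Il6. Of 20 genes of the leukocyte adhesion and NF-kB list with a window, 6 held the site (30%), against 274 of 4086 genes kept (6.71%) and 2425 of all 27025 (8.97%). Genes called lower held it in 14 of 105 windows (13.3%) and genes called higher in 14 of 176 (7.95%). Of the 6, F3 was called higher, so the site did not go with 1 direction.

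Of 29 endothelial markers kept, 23 were higher, the median was 0.28, and 7 were called higher and 2 lower. Gja4, the gap junction gene for connexin 37 of arteries, was at 8.27 in WT_E2 and 7.48 in WT_Veh (difference 0.79 ± 0.29). Icam2 was at 6.67 in WT_E2 and 5.99 in WT_Veh (difference 0.68 ± 0.13), and Tek, the angiopoietin receptor gene, at 5.72 in WT_E2 and 5.09 in WT_Veh (difference 0.63 ± 0.17). Vwf, the clotting factor stored in endothelium, was at 7.86 in WT_E2 and 7.36 in WT_Veh (difference 0.50 ± 0.14), the scavenger receptor gene Stab1 at 5.62 in WT_E2 and 5.01 in WT_Veh (difference 0.61 ± 0.24), and Klf2 was given above. S1pr1, a receptor that stabilizes endothelial junctions, was at 6.81 in WT_E2 and 6.41 in WT_Veh (difference 0.40 ± 0.12). The lower calls were Sele and Procr, the protein C receptor gene, at 10.06 in WT_E2 and 10.38 in WT_Veh (difference -0.32 ± 0.10). Defining markers of the lining did not all follow: Cdh5 was at 0.05 ± 0.30 and Kdr at 0.00 ± 0.48. Pecam1, at 0.39 ± 0.27, lay above the list's median but was not called. The summed level of 43 endothelial markers was 12.86 in WT_E2 and 12.78 in WT_Veh. The brightest of them, which weigh most in that sum, were Thbd (-0.18 ± 0.13), Klf4 (0.21 ± 0.19) and Procr (-0.32 ± 0.10). In pooled tissue more cells of a type and more RNA per cell cannot be told apart. Of 17 vasoactive peptides and receptors, 13 were higher (median 0.14), yet the largest difference was that of Edn2. Edn1, the endothelin gene of endothelium, was at 0.20 ± 0.09, and Ece1, which cleaves its precursor, at 0.38 ± 0.18, and neither was called.

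**Figure D5:**
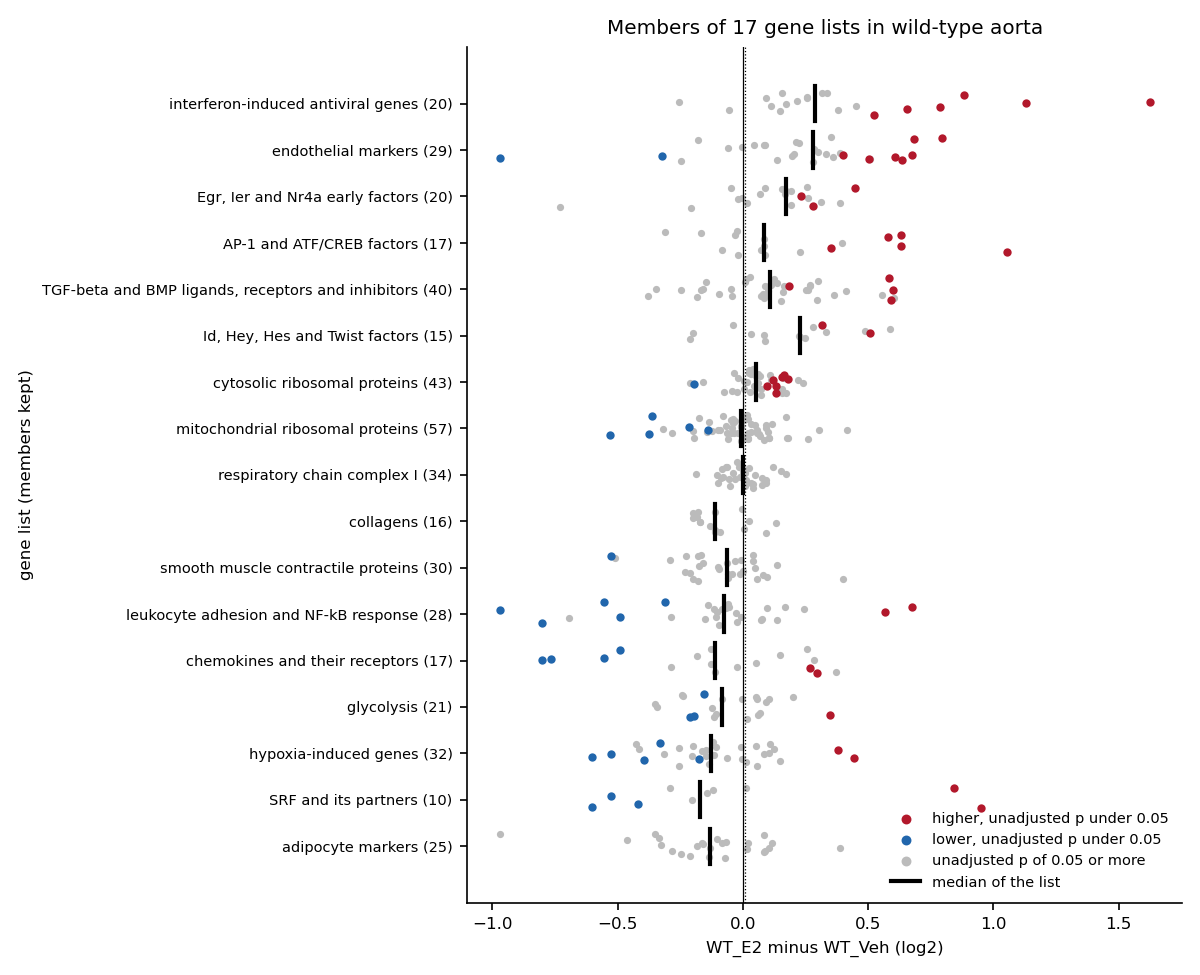
Each point is a gene of 1 of 17 lists, placed by WT_E2 minus WT_Veh (log2), black bars are list medians, and the dotted line is the median over all genes (0.01); red and blue points were called higher and lower at an unadjusted p under 0.05. The interferon (0.29) and endothelial (0.28) medians lie furthest to the right, and those of SRF partners (-0.17), adipocyte markers (-0.13) and hypoxia-induced genes (-0.13) furthest to the left.

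Of 41 receptor tyrosine kinases and ligands, 3 were called higher and 1 lower. Gas6, a ligand of the TAM receptors that clear dying cells, was at 9.91 in WT_E2 and 9.28 in WT_Veh (difference 0.63 ± 0.08) (p = 0.00016 in the authors' deposited table). Vegfd, a lymphatic growth factor gene, was at 5.94 in WT_E2 and 5.05 in WT_Veh (difference 0.89 ± 0.29), and Fgfr2 at 5.42 in WT_E2 and 5.68 in WT_Veh (difference -0.26 ± 0.10). Both lost their calls over the median of probe sets, which was 0.47 for Vegfd and -0.15 for Fgfr2. Of 40 genes of the TGF-beta and BMP pathways, 30 were higher (median 0.11) and 4 were called, all higher. After centring, 2 of them stayed called higher and Tgif1 (-0.18 ± 0.08), a corepressor gene of the pathway, was called lower. Tgfb2, a ligand, was at 10.42 in WT_E2 and 9.83 in WT_Veh (difference 0.59 ± 0.20), with 0.84 and 0.65 at its other probe sets, and Bambi, a decoy receptor gene, at 6.81 in WT_E2 and 6.23 in WT_Veh (difference 0.58 ± 0.24). Gdf10 (0.60 ± 0.25) and the repressor gene Ski (0.18 ± 0.08) were not called when centred or quantile normalized. Of 18 Wnt pathway genes, 3 were called, all higher: the secreted inhibitor gene Sfrp1, Frzb, another secreted inhibitor gene, at 6.14 in WT_E2 and 5.62 in WT_Veh (difference 0.52 ± 0.13), and the transcription factor gene Tcf7l1 (0.44 ± 0.16). None of the 3 was called over the median of its probe sets, at 0.39 for Frzb and 0.27 for Tcf7l1 beside the value of Sfrp1 given above. The other probe sets of Frzb and Sfrp1 lay under the level limit. Notch genes had 0 of 12 called by the deposited limma p.

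Pik3r1, the regulatory subunit of PI3 kinase, was at 5.85 in WT_E2 and 5.21 in WT_Veh (difference 0.63 ± 0.17), and Pdpk1, which activates Akt, at 6.88 in WT_E2 and 7.14 in WT_Veh (difference -0.26 ± 0.10). Map2k1, the MAP kinase kinase that phosphorylates ERK, was at 9.70 in WT_E2 and 9.31 in WT_Veh (difference 0.39 ± 0.12). Errfi1, a feedback inhibitor of the EGF receptor, was at 13.46 in WT_E2 and 13.19 in WT_Veh (difference 0.27 ± 0.10) and lost its call after quantile normalization. Rgs4, which ends G protein signals, was at 7.81 in WT_E2 and 7.32 in WT_Veh (difference 0.49 ± 0.16), and Gna13 at 8.49 in WT_E2 and 8.15 in WT_Veh (difference 0.34 ± 0.12). Pde4b, which degrades cyclic AMP, was at 11.32 in WT_E2 and 10.94 in WT_Veh (difference 0.38 ± 0.12). Of 17 Ras-family genes, GAPs and GEFs, Rasal2 was the 1 called. With the median over probe sets Pik3r1 (0.52), Pdpk1 (-0.15), Rgs4 (0.44) and Gna13 (0.24) were not called. Trpv2, a cation channel gene, was at 5.97 in WT_E2 and 5.55 in WT_Veh (difference 0.42 ± 0.08). Potassium channels had 0 of 6 called by the deposited limma p.

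Of 9 matrix metalloproteinases and Timps, 2 were called lower, Mmp3 and Timp1. Adam19 was at 7.38 in WT_E2 and 7.77 in WT_Veh (difference -0.39 ± 0.13). Tnc, which encodes tenascin C of injured vessels, was at 8.14 in WT_E2 and 8.54 in WT_Veh (difference -0.40 ± 0.07) (p = 0.00086 in the authors' deposited table), and Fn1, the fibronectin gene, at 11.83 in WT_E2 and 12.08 in WT_Veh (difference -0.25 ± 0.10). Thbs2, an inhibitor of vessel growth, was at 7.22 in WT_E2 and 6.96 in WT_Veh (difference 0.26 ± 0.10) and lost its call after quantile normalization. Fn1 (-0.22) and Thbs2 (0.28) were not called over the median of their probe sets. Of 16 collagens 12 were lower (median -0.11) and 0 were called by the deposited limma p. Col1a1 was at -0.11 ± 0.18 and Col3a1 at -0.13 ± 0.25. Elastic fibre genes (26 kept) and basement membrane genes (11 kept) had 0 called as well.

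Contractile genes of smooth muscle, which make up most of the wall, had 21 of 30 lower and a median of -0.06. Myocd was the 1 called. Acta2 stood at 14.00 in WT_E2 and 14.05 in WT_Veh, Myh11 at 13.16 in WT_E2 and 13.12 in WT_Veh, and Tagln at 13.55 in WT_E2 and 13.49 in WT_Veh. All 3 differences, -0.04 ± 0.07, 0.04 ± 0.09 and 0.06 ± 0.10, were within their errors. Of 57 actin regulators, Tmod1, Myo18a and Sptbn1 were called higher, and the other probe sets of Sptbn1 stood at -0.51 and -0.35. Over all genes 4.22% were called higher and 2.69% lower, the shares to set beside this list and the next. Microtubule genes had 5 called higher and 2 lower of 48, with Mast2, Dynlrb1 (0.24 ± 0.07), a dynein light chain gene, and Clasp2 (0.21 ± 0.08) among the higher ones, though the median over the probe sets of Clasp2 was 0.01. Membrane traffic genes included Arf6 (0.39 ± 0.10), the clathrin light chain gene Clta (0.30 ± 0.07) and Ap1s1 (0.44 ± 0.11) called higher, and Scamp3 (-0.55 ± 0.07) called lower. Arf6 (median 0.33) and Clta (median 0.17) lost their calls over all their probe sets.

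Of 32 hypoxia-induced genes 22 were lower, with a median of -0.13, and 5 were called lower and 2 higher. Egln3, the oxygen sensor that hypoxia induces, was at 8.58 in WT_E2 and 9.19 in WT_Veh (difference -0.60 ± 0.18), with -0.69 at another probe set. Car9, which encodes a carbonic anhydrase, was at 6.27 in WT_E2 and 6.79 in WT_Veh (difference -0.53 ± 0.18), and Ero1a, an oxidase of the endoplasmic reticulum, at 9.17 in WT_E2 and 9.56 in WT_Veh (difference -0.40 ± 0.14). Ndrg1 was at 10.09 in WT_E2 and 10.26 in WT_Veh (difference -0.18 ± 0.04). Hif1a itself was called higher, at 11.57 in WT_E2 and 11.20 in WT_Veh (difference 0.38 ± 0.11), and Vldlr at 9.23 in WT_E2 and 8.79 in WT_Veh (difference 0.44 ± 0.13). Over the median of probe sets, 3 were called lower and 0 higher by the median of the limma p-values, with Vldlr at 0.29 and Ndrg1 at -0.18. Of 21 glycolytic genes, 3 were called lower and 1 higher. Ldha, which makes lactate, was at 12.06 in WT_E2 and 12.27 in WT_Veh (difference -0.21 ± 0.08), Tpi1 at 9.93 in WT_E2 and 10.13 in WT_Veh (difference -0.20 ± 0.07) and Pgk1 at 11.40 in WT_E2 and 11.56 in WT_Veh (difference -0.15 ± 0.05), while Hk1, the first enzyme of the pathway, was at 9.53 in WT_E2 and 9.18 in WT_Veh (difference 0.35 ± 0.12). Over the median of probe sets 1 glycolytic gene was called, and Hk1 (0.50), Tpi1 (-0.20) and Pgk1 (-0.09) were not.

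By the deposited limma p, 0 genes were called of 34 for complex I, 30 for complexes II to IV, 19 for ATP synthase, 41 of fatty acid metabolism and 24 of cholesterol synthesis and uptake. The median differences of these lists lay between -0.03 and 0.01. Mitochondrial ribosomal proteins had 5 of 57 called, all lower, with a median of -0.01. Mrpl15 was at 5.70 in WT_E2 and 6.23 in WT_Veh (difference -0.53 ± 0.09), though its other 3 probe sets stood between -0.20 and -0.08, and Mrps18b was at 5.59 in WT_E2 and 5.97 in WT_Veh (difference -0.37 ± 0.11). Mrps18c (-0.36 ± 0.14), Mrps21 (-0.22 ± 0.09) and Mrpl22 (-0.14 ± 0.03) were the others. Hspa9, the mitochondrial Hsp70, was at 10.28 in WT_E2 and 10.57 in WT_Veh (difference -0.29 ± 0.09). Mthfd2, a folate enzyme of mitochondria, was at 8.95 in WT_E2 and 9.39 in WT_Veh (difference -0.45 ± 0.17). The calls of Mrpl15 (-0.08), Hspa9 (-0.23) and Mthfd2 (-0.43) were lost over the median of their probe sets.

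Cytosolic ribosomal proteins had 35 of 43 higher, with a median of 0.05, 7 called higher and 1 lower. Differences were small beside the high levels: Rps29 was at 13.61 in WT_E2 and 13.43 in WT_Veh (difference 0.18 ± 0.07), Rpl13a at 13.05 in WT_E2 and 12.88 in WT_Veh (difference 0.16 ± 0.06) and Rps28 at 13.09 in WT_E2 and 12.93 in WT_Veh (difference 0.16 ± 0.05). Rpl13a and Rps28 lost their calls after quantile normalization, when 29 of 43 were higher and 4 were called so, and Rps29 lost its call after centring. Probe set medians left 2 called higher and 1 lower, without Rps29 (0.08), Rpl13a (0.15) and Rps28 (0.11). Rpl8 was the 1 called lower, at 10.31 in WT_E2 and 10.50 in WT_Veh (difference -0.19 ± 0.06). Many ribosomal protein genes have near-identical pseudogenes, which these probe sets may also read. Translation factors had 2 called higher and 1 lower of 47, and tRNA synthetases 0 of 18.

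Of 68 heat shock proteins and cochaperones, 3 were called higher and 2 lower, near the shares over all genes (4.22% and 2.69%). Cryab, a small heat shock protein of muscle, was at 9.98 in WT_E2 and 9.41 in WT_Veh (difference 0.58 ± 0.15), Dnajb4 at 10.12 in WT_E2 and 9.46 in WT_Veh (difference 0.66 ± 0.26) and Hspa4 at 9.83 in WT_E2 and 9.40 in WT_Veh (difference 0.42 ± 0.16). Among genes of the endoplasmic reticulum, Pdia6, a disulfide isomerase, was at 8.31 in WT_E2 and 8.66 in WT_Veh (difference -0.35 ± 0.07) and Dnajb11 at 5.61 in WT_E2 and 5.92 in WT_Veh (difference -0.31 ± 0.10), both called lower, and Ssr3, a translocon subunit, was called higher at 9.31 in WT_E2 and 8.87 in WT_Veh (difference 0.44 ± 0.10). Of 111 ubiquitin ligases and cullin adaptors, 4 were called higher and 4 lower, again near those shares. Fbxo32, the atrogin ligase of muscle wasting, was at 7.05 in WT_E2 and 6.26 in WT_Veh (difference 0.79 ± 0.15), and Socs2, which limits growth hormone signals, at 7.93 in WT_E2 and 7.29 in WT_Veh (difference 0.65 ± 0.23). Rnf19b was at 9.89 in WT_E2 and 9.27 in WT_Veh (difference 0.62 ± 0.08), and Zyg11b at 5.43 in WT_E2 and 5.99 in WT_Veh (difference -0.56 ± 0.14). Pdia6 stayed called at a probe set median of -0.16, while Hspa4 (0.42) and Zyg11b (-0.34) did not stay called. The median difference of Hspa4 equalled that of its brightest probe set, so only the median of the p-values changed its call.

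Among nuclear genes, Smarca2, a remodeller ATPase, was at 6.58 in WT_E2 and 5.97 in WT_Veh (difference 0.61 ± 0.24) and Kmt5a, a histone H4 methyltransferase gene, at 8.70 in WT_E2 and 8.26 in WT_Veh (difference 0.44 ± 0.13). Kmt2c, which methylates histone H3 at enhancers, was at 6.00 in WT_E2 and 6.53 in WT_Veh (difference -0.53 ± 0.16) and Dnmt1, the maintenance DNA methyltransferase gene, at 6.32 in WT_E2 and 6.75 in WT_Veh (difference -0.43 ± 0.11). The medians over probe sets were 0.27 for Smarca2 and -0.30 for Dnmt1, neither of them called. Of 109 splicing factors, 3 were called higher and 2 lower, against 4.22% and 2.69% over all genes. Scaf11 was at -0.52 ± 0.13 on its brightest probe set and 0.06 on another. Ago2, the slicer of small RNA silencing, was at 9.03 in WT_E2 and 9.50 in WT_Veh (difference -0.47 ± 0.15). DNA replication and mitosis genes had 0 of 20 called by the deposited limma p, as had p53 targets (18 kept) and clock genes (16 kept). Dbp (0.72 ± 1.05) and Nr1d2 (0.64 ± 0.44) of the clock list had wide errors.

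Of 27 heart muscle markers 2 passed the level limit and 7 sat at the array's lowest level in both WT groups, and of 20 skeletal muscle markers 2 passed and 9 were at the lowest level. Adipocyte markers (25 of 31 kept) had 17 lower, a median of -0.13 and summed levels over all 31 of 14.96 in WT_E2 and 15.07 in WT_Veh; Retn stood at -0.97 ± 0.47. Fibroblast markers (23 of 27 kept) had 14 higher, a median of 0.17 and summed levels over all 27 of 15.13 in WT_E2 and 15.14 in WT_Veh, with Htra3 (0.61 ± 0.16) and Gdf10 called higher and Penk (-0.58 ± 0.22) lower. The brightest of the 27 were Col3a1 (-0.13 ± 0.25), Col1a1 (-0.11 ± 0.18) and Col1a2 (-0.01 ± 0.13). The median of Htra3 over its probe sets was 0.00, but its other probe sets lay under the level limit. Of 31 mesothelial and epithelial markers 5 were kept and 12 were at the lowest level, and the summed level of all 31 was 9.17 in WT_E2 and 8.98 in WT_Veh. Of these 5, 4 were higher (median 0.19), with Sprr1a (1.39 ± 0.38) called, Upk3b (1.93 ± 0.96) not called, and Krt18, at 7.12 in WT_E2 and 7.55 in WT_Veh (difference -0.44 ± 0.15), called lower. Sprr1a (4.53 in WT_Veh) and Upk3b (4.28 in WT_Veh) reached the level limit in WT_E2 only, so the limit itself favoured their count as higher. The part of these tissues in the genes above was not tested.

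Where a called gene had further probe sets at the level limit, they mostly pointed the same way. For 108 called genes, 143 of 167 other probe sets had the same sign (85.6%), against 66.8% over all genes kept. For the called genes past 1.5-fold, 20 of 20 did, and 16 were called themselves. Probe sets of a gene read the same RNA on the same arrays, so they are not replicates. Those under the level limit, such as the others of Sfrp1 and Runx1, are not counted.

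The DPM response comes from separate samples; there 4.26% of the same genes were called higher and 0.816% lower. Of the 347 called genes, 235 had the same sign in DPM (67.7%), against 52.9% over all genes kept. Genes called higher shared the sign in 80.7% and genes called lower in 47.4%; with both responses centred on their medians these shares were 67.9% and 68.1%. The deposited difference between the responses had an unadjusted p under 0.05 for 84 of the 347, against 211 of all 5026 (4.2%), but the WT groups enter both sides of that count. At a p under 0.01 the difference was called for 18 of the 347 and 38 of all 5026 (0.756%), with the same limit. Tmod1 (1.65 ± 0.23 in WT, 1.17 ± 0.31 in DPM), Calhm5 (0.99 ± 0.15 in WT, 0.98 ± 0.20 in DPM), Elk3 (0.95 ± 0.16 in WT, 0.75 ± 0.21 in DPM) and Tnc (-0.40 ± 0.07 in WT, -0.43 ± 0.09 in DPM) had calls in both genotypes. Of 20 interferon genes, kept by their WT levels, 18 were higher in WT and 2 in DPM. The difference between the responses was called for 6 of the 20, among them Ifit2 (1.13 ± 0.24 in WT, -0.37 ± 0.32 in DPM). Ifit1 itself stood at 5.60 in DPM_E2 and 6.62 in DPM_Veh, while WT_Veh was at 4.39. Endothelial markers had 23 of 29 higher in WT and 10 of 29 in DPM, with 3 differences between the responses called. Complex I genes had 16 of 34 higher in WT and 30 of 34 in DPM, where the median over all genes was 0.08. Other lists had similar counts in both genotypes. Leukocyte adhesion and NF-kB genes had 20 of 28 lower in WT and 19 in DPM, and collagens 12 of 16 and 14. Cytosolic ribosomal proteins had 35 of 43 higher in each. Over all 5026 genes kept, 2591 were higher in WT and 3317 in DPM.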

How the data were processed

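RNA of pooled aortas was hybridized to Affymetrix arrays. The deposited group levels and differences are log2 values, and the deposited p-values are unadjusted. GCRMA and limma are named per the labels, without version or role. No array-level values were used. All columns used were mapped, with 0 left unmapped.

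Of 22690 probe sets, 20393 carried 1 symbol, 691 several and 1606 none; those with 1 symbol were used, and the brightest per symbol over all 4 groups was taken. The number of arrays limits the precision. Standard errors were recovered from difference and p at 6.44 total degrees of freedom. Adjustment was Benjamini-Hochberg over the 5026 genes kept. Tools were Python 3.11.15, numpy 2.4.6, scipy 1.17.1 and pandas 2.3.3. In data simulated for this comparison over 5023 genes, 75% of genes changed 1.5-fold and 95% changed 2-fold were called.

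The 193 genes counted as named were the 15 largest calls each way, up to 4 called members per list by size and up to 2 further members past 1.5-fold. Esr1, Esr2, Gper1, Strn and Nos3 were added to the text. Not all of the 193 are described: Cap1 (1.63 ± 1.22, not called) and Serpinb9 (0.80, called higher), for example, are not. Others in the text were chosen after their values were seen. The members and lists were chosen with earlier results of these data known. Alternatives were centring, quantile normalization, other minimum levels, the median over probe sets and the probe set brightest in WT. Centring and quantile normalization changed the differences of the group levels only, and p-values were computed again with the recovered standard errors. The median over probe sets took in those under the level limit, and its p was the median of their p-values. Promoter windows came from RefSeq (GRCm38.p6), and 152 of 193 named genes had one.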

Additional observations from a re-analysis of the deposited data

Results flagged for a closer look

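For 9 genes called in WT aorta the deposited difference between the genotypes (DPM response minus WT response, log2) had an unadjusted p under 0.01. They are those found among the 172 named genes called in WT; over all genes kept there were 38 of 5026 (0.756%), and 18 among the 347 called. The WT response that chose these genes is part of the difference tested, so the choice itself favours differences of opposite sign, and the genes are given as values only. The difference was -1.81 for Ifit3, -1.67 for Rsad2 and -1.499 for Ifit2, the interferon genes, and -1.38 for the Wnt inhibitor gene Sfrp1. It was -0.52 for Mast2 and -0.50 for Gas6. It was positive for Mrpl15 (1.26), the helicase gene Dhx32 (0.67) and Scamp3 (0.44), which were called lower in WT. After adjustment over 5026 genes 1 difference stayed under 0.05, that of the ubiquitin ligase gene Siah1a (0.17). Its level was 6.20 in DPM_E2 and 6.04 in DPM_Veh, and 6.04 in both WT_E2 and WT_Veh, with no difference in WT. The standard error of its DPM response was 0.01, against a median of 0.199 over all genes kept in DPM, and the part of that small error in the call was not tested.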

How the results depend on the processing

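No paired analysis was possible because 1 level per group was used; for the same reason no replicate could be left out. Of 193 named genes, 185 kept direction and side of the threshold when centred, 179 when quantile normalized, 192 with the probe set brightest in WT and 128 with the median over probe sets, where 60 lost a call and Arhgap21 gained one (0.67). That median turned the sign of Rrp1 (-0.0323), Scaf11 (0.0038), Sptbn1 (-0.18) and Tprkb (0.0228), and left 130 genes called higher and 74 lower. With it 24 genes were at least 1.5-fold lower; 19 were at a minimum level of 6 (3807 genes) and 69 with no minimum (12393 genes). The 1 adjusted call became 0 when centred, quantile normalized or with no minimum. Of these settings, only that with no minimum used limma's unadjusted p as deposited. No list median of size 0.05 or more, of 57, changed sign when centred or quantile normalized; 3 did at a minimum level of 6, 3 with the median over probe sets and 19 with no minimum. The median standard error was 0.147 or 0.151 with 1 degree of freedom fewer or more. The cause of these changes was not tested. The median standard error was 0.18 for genes at or under the lower quartile of WT level (5.95) and 0.13 for those over the upper quartile (8.22), with single genes on both sides of these values.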

Other observations

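Of the 347 called genes, 159 belong to none of the gene lists, and the following were picked after their values were seen. Pim1, a growth-promoting serine kinase gene, was at 8.42 in WT_E2 and 7.55 in WT_Veh (0.86 ± 0.16). Azin1, whose protein spares ornithine decarboxylase from degradation, was at 10.23 in WT_E2 and 9.56 in WT_Veh (0.67 ± 0.12), and Chka, the choline kinase gene, at 7.80 in WT_E2 and 7.08 in WT_Veh (0.72 ± 0.26). Lmo2, a LIM adaptor gene of blood and endothelium, was at 6.11 in WT_E2 and 5.35 in WT_Veh (0.77 ± 0.12). Plscr1, a scramblase gene that interferon also induces, was at 6.18 in WT_E2 and 5.50 in WT_Veh (0.68 ± 0.13). Nox4, an oxidase gene of the vessel wall, was at 7.97 in WT_E2 and 7.56 in WT_Veh (0.42 ± 0.14).

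Zeb1, a repressor of epithelial genes, had one of the smaller errors among genes called lower, at 8.65 in WT_E2 and 9.07 in WT_Veh (-0.41 ± 0.05). Lgals3, which encodes galectin 3, was at 8.59 in WT_E2 and 9.09 in WT_Veh (-0.50 ± 0.17). Nnmt, which methylates nicotinamide, was at 6.79 in WT_E2 and 7.26 in WT_Veh (-0.47 ± 0.17). Median WT levels were 7.41 for genes called higher, 6.78 for genes called lower and 6.89 for all genes kept.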
